A study of Rattus norvegicus with 10 samples.

Results

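The 9 genes described here, Clu, Fshr, Amh, Amhr2, Shbg, Rhox5, Wt1, Dhh and Tsx, are secreted products, hormone receptors and regulators of the Sertoli cell, the somatic cell of the seminiferous tubule. They were chosen by symbol, and the table gives each of them 1 locus, none of which is merged with another named gene, among 16915 gene names in all. The tissue was testis of adult male Wistar rats at postnatal day 120. The BDE-47 group comprised 5 libraries from sons of dams fed the brominated flame retardant 2,2',4,4'-tetrabromodiphenyl ether (BDE-47) in tocopherol-stripped corn oil at 0.2 mg/kg body weight per day. The vehicle group comprised 5 libraries from sons of dams fed the oil alone. Both were dosed through the dam from pregnancy day 8 to postpartum day 21, with 7 dams in each group. The labels do not tie libraries to litters.

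Sertoli cells surround the germ cells and feed them. Follicle-stimulating hormone acts on them through its receptor and cyclic AMP, and testosterone acts on them as well. Their secreted products reach the tubule fluid, the germ cells and the neighbouring Leydig and peritubular cells.

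The deposited table holds 1 FPKM value per group for each locus, where FPKM is a fragment count scaled to transcript length and library size. The step that turned the 5 libraries of a group into this value is not described in the labels. No value per animal was available to this work, so the spread between animals, the depth of each library and the error of every value below are unknown, and no difference was tested. Each difference is taken on the log2(FPKM + 1) scale as BDE-47 minus vehicle, and this scale understates the difference of low genes. A gene was compared if its mean over both columns was at least 1 FPKM, and it is called higher or lower where that difference reaches 2-fold. This is a rule of size with no replicate check. Titles of the BDE-47 libraries begin their animal code with C and titles of the vehicle libraries with X, and no list of libraries accompanies the columns, so every direction rests on the names of the 2 columns.

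Of the 9 genes, 7 reached the 2-fold size in the direction of higher BDE-47 values (Clu, Tsx, Dhh, Wt1, Shbg, Amhr2 and Fshr), Rhox5 lay within 2-fold, and Amh was too low to be compared. Over all 11567 genes compared, 30.1% were higher by this rule and 3.6% were lower, so a difference of this size in this direction was common in the table. In bulk tissue, more cells of a type and more RNA per cell cannot be told apart. The median difference was 1.56 over the 8 genes compared and 0.45 over all genes compared, with quartiles of -0.20 and 1.17. Rhox5 passed the filter through its vehicle value, so the median over all 9 genes is given as well and was 1.54. Higher genes made up 89.3% of all genes past the 2-fold size. That share was 56.5% after median-of-ratios scaling, 66.5% after quantile normalization and 78.0% after rescaling that left out mitochondrial loci and the 10 most abundant ones. These scalings lowered the median of all genes by 0.47, 0.35 and 0.18.

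**Figure D1:**
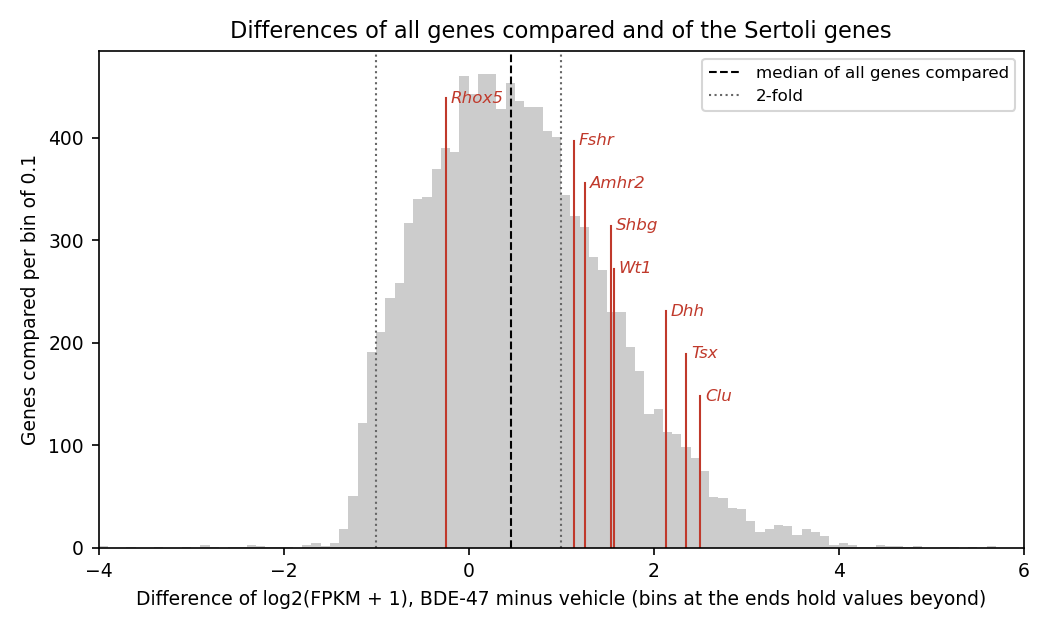
Histogram of the difference of log2(FPKM + 1), BDE-47 minus vehicle, over the 11567 genes compared, in bins of 0.1, with the 8 Sertoli genes compared drawn as red lines whose height has no meaning. Clu at 2.51, Tsx at 2.35 and Dhh at 2.14 lie in the upper tail, Fshr at 1.14 lies just past the 2-fold line, and Rhox5 at -0.25 lies below the median of all genes.

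Promoter sequences were available for 7 of the 9 genes, from RefSeq on build GRCr8, each covering 250 bases before and 50 bases after the annotated start. Those of the hormone receptor Fshr, the androgen-binding protein gene Shbg, the X-linked Tsx and the hormone gene Amh are shown, the first 3 as genes that were higher and Amh as the one that was near its vehicle level. Capitals mark every match to the motifs searched, on either strand. The windows are chr6:10952079-10952378 (+ strand) for Fshr, chr10:54834852-54835151 (- strand) for Shbg, chrX:72492897-72493196 (+ strand) for Tsx and chr7:9559818-9560117 (- strand) for Amh.
Fshr: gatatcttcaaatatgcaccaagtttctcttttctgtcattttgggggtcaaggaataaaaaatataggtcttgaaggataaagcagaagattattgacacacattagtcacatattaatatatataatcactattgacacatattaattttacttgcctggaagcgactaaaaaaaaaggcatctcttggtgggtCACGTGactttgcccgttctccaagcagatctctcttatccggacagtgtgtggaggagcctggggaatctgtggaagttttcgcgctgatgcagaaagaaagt
Shbg: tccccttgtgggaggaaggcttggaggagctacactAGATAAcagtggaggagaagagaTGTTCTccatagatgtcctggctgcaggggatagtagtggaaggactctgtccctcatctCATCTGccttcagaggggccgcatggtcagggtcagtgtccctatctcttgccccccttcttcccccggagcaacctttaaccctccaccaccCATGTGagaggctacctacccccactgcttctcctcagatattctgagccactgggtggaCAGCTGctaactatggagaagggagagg
Tsx: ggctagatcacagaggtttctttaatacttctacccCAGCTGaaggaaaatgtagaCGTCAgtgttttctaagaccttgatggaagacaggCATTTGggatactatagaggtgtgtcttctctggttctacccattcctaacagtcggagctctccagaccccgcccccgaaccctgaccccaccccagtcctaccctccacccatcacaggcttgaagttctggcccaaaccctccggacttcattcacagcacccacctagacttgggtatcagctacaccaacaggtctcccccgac
Amh: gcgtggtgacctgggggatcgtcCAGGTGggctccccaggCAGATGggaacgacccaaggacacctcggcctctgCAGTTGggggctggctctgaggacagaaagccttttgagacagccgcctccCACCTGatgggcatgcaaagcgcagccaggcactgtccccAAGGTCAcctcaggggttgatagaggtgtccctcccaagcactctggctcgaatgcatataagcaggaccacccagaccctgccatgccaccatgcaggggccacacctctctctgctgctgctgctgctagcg

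The Fshr window holds 1 E box, CACGTG, at -54 to -49, counted with the annotated start as 0, and in the rat Fshr promoter an E box is known to be bound by USF factors. The Shbg window holds the 6-letter arm AGAACA of an androgen response element, read on the other strand as TGTTCT, at -191 to -186, and a GATA motif, AGATAA, at -214 to -209. The Tsx window holds the 5-letter arm TGACG of a cyclic AMP response element, read as CGTCA, at -194 to -190. The Amh window holds AAGGTCA, the motif of the orphan receptor Nr5a1, at -84 to -78. E boxes (CANNTG) were present in all 7 windows, and in 72.1% of 33469 promoters of the same length. AGAACA was found in 20.7% of all promoters, TGACG in 21.2%, AAGGTCA in 4.61% and AGATAA in 11.6%, each in 1 of the 7 windows. The full cyclic AMP response element TGACGTCA, of which TGACG is a part, was in 1.83% of all promoters and in 0 of the 7. The same count of 0 was found for the full androgen response element (0.0149% of all promoters), the Sox motif AACAAT (11.7%) and the Wt1 type motif GCGGGGGCG (2.73%). The windows also differ in base composition: the Wt1 window is 71.0% G and C, that of Fshr 39.0%, and the median of all promoters is 51.7%.

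Among the secreted products, clusterin (Clu), a glycoprotein that Sertoli cells release in large amounts, was the most abundant of the 9 genes in both columns. Clu was at 1520 FPKM in BDE-47 testes and 267 FPKM in vehicle testes. Its value was 5.70-fold higher in the BDE-47 column, a difference of 2.51, larger than that of 96.3% of all genes compared. Its locus, chromosome 15:48926520-48986864 of build rn5, shares its bounds with Scara3, a scavenger receptor family gene, which was at 4.32 FPKM in BDE-47 testes and 0.255 FPKM in vehicle testes. The nearest other compared genes on either side lay close to even: Adam2, a sperm surface gene, was at 133 FPKM in BDE-47 testes and 151 FPKM in vehicle testes, and Ccdc25 was at 19.4 FPKM in BDE-47 testes and 16.2 FPKM in vehicle testes.

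Shbg encodes the androgen-binding protein that rat Sertoli cells secrete into the tubule. It was at 75.1 FPKM in BDE-47 testes and 25.1 FPKM in vehicle testes, a 2.99-fold higher value and a difference of 1.54. It ranked the third of the 9 genes in both columns. Its locus is chromosome 10:55965488-55969038 of rn5. The genes next to it were also at least 2-fold higher: Atp1b2, a sodium pump subunit gene, was at 26.7 FPKM in BDE-47 testes and 5.10 FPKM in vehicle testes, and Sat2 was at 25.8 FPKM in BDE-47 testes and 6.87 FPKM in vehicle testes. Fxr2, the next gene beyond Sat2, lay within 2-fold, at 20.5 FPKM in BDE-47 testes and 18.8 FPKM in vehicle testes. Because Shbg is also a liver gene in humans and the extraction text of the labels speaks of liver, 7 liver genes were read as a check. Of these, 3 reached the filter and all 3 lay within 2-fold, with a median difference of 0.14 that was -0.31 after median-of-ratios scaling, and with summed levels of the 7 of 24.9 FPKM in BDE-47 testes and 21.4 FPKM in vehicle testes. The 2 most abundant were Apoh, at 14.3 FPKM in BDE-47 testes and 12.9 FPKM in vehicle testes, and Fgb, at 6.45 FPKM in BDE-47 testes and 5.24 FPKM in vehicle testes. Among those under the filter, albumin (Alb) was at 0.633 FPKM in BDE-47 testes and 0.920 FPKM in vehicle testes, and transthyretin (Ttr) ran the other way, at 1.67 FPKM in BDE-47 testes and 0.142 FPKM in vehicle testes.

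Desert hedgehog (Dhh) is the ligand through which Sertoli cells signal to Leydig and peritubular cells. It was at 8.34 FPKM in BDE-47 testes and 1.13 FPKM in vehicle testes, and this 7.41-fold higher value was the largest ratio of the 9 genes. On the log2(FPKM + 1) scale the difference was 2.14, behind Clu and Tsx, since the pseudocount of 1 weighs more on its low vehicle value. The deposited table places Dhh at chromosome X:115082655-115088273 of rn5, beside Rhebl1, Prkag1 and Lmbr1l, whereas its RefSeq promoter lies on chromosome 7 of GRCr8. Prkag1, a subunit gene of an energy-sensing kinase, was at 22.9 FPKM in BDE-47 testes and 4.47 FPKM in vehicle testes, and Lmbr1l was at 29.0 FPKM in BDE-47 testes and 37.5 FPKM in vehicle testes.

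Anti-Müllerian hormone (Amh) is made by immature Sertoli cells and is known to decline at puberty. It was the lowest of the 9 genes, at 0.525 FPKM in BDE-47 testes and 0.476 FPKM in vehicle testes. Its difference of 0.05 was not called, and it turned to -0.02, -0.23 and -0.13 after rescaling without the most abundant loci, quantile normalization and median-of-ratios scaling, so it has no direction that holds. The locus is chromosome 7:11942869-11945218 of rn5 and overlaps no other locus of the table. Its immediate neighbours were far apart in level: Jsrp1 was at 0.171 FPKM in BDE-47 testes and 0.358 FPKM in vehicle testes, and Plekhj1 at 33.6 FPKM in BDE-47 testes and 16.4 FPKM in vehicle testes.

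**Figure D2:**
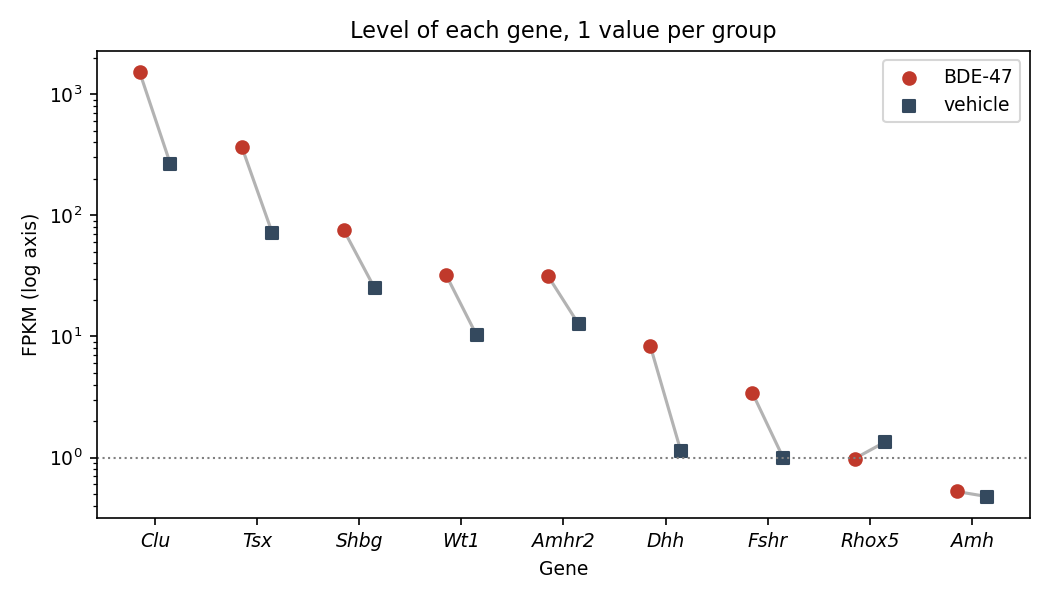
FPKM on a log axis for each of the 9 genes, with the BDE-47 column (red circle) to the left of the vehicle column (dark square); each point is the authors' value for a group and has no error bar because no value per animal was used. The levels run from 1520 FPKM (Clu, BDE-47 column) to 0.476 FPKM (Amh, vehicle column), and Rhox5 is the only gene of the 9 with its BDE-47 point below its vehicle point.

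Of the hormone receptors, Fshr, the receptor of follicle-stimulating hormone, was at 3.41 FPKM in BDE-47 testes and 1.00 FPKM in vehicle testes. The difference of 1.14 lay just past the 2-fold line, and 74.0% of all genes compared had a smaller one. It was within 2-fold, at 0.81 and 0.73, after median-of-ratios scaling and quantile normalization. Its locus spans chromosome 6:22728051-22955080 of rn5 and shares those bounds with 4 unnamed loci. Each of the 4 was under 1 FPKM in both columns, and the authors' deposited table gives log2 ratios from 1.17 to 2.62 for them and 1.77 for Fshr. The nearest named gene is Lhcgr, the receptor of luteinizing hormone, a gene of Leydig cells. It was at 20.5 FPKM in BDE-47 testes and 2.93 FPKM in vehicle testes. On the far side of Lhcgr, the germ cell gene Gtf2a1l was at 146 FPKM in BDE-47 testes and 224 FPKM in vehicle testes.

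Amhr2, the type II receptor of anti-Müllerian hormone, was well above its ligand in level. It was at 31.3 FPKM in BDE-47 testes and 12.6 FPKM in vehicle testes, a difference of 1.25. It too was within 2-fold, at 0.76 and 0.90, after median-of-ratios scaling and quantile normalization. Amhr2 lies at chromosome 7:141843625-141853420 of rn5. Both of its closest neighbours were also at least 2-fold higher. Sp1, a transcription factor gene, was at 11.7 FPKM in BDE-47 testes and 5.13 FPKM in vehicle testes. Prr13 was at 49.5 FPKM in BDE-47 testes and 14.8 FPKM in vehicle testes.

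Of the regulators, Wt1, a zinc finger transcription factor needed for Sertoli cell identity, was at 32.2 FPKM in BDE-47 testes and 10.2 FPKM in vehicle testes. The difference was 1.57, close to that of Shbg. Its locus, chromosome 3:101756183-101802603 of rn5, overlaps no other. Wt1 and Amhr2 were near each other in level, with Wt1 ahead in the BDE-47 column and Amhr2 ahead in the vehicle column, an order that cannot be read without a spread. Eif3m, a translation factor gene next to Wt1, was at 156 FPKM in BDE-47 testes and 82.7 FPKM in vehicle testes.

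Rhox5, a homeobox gene of the X-linked Rhox cluster, is a classical androgen-dependent gene of mouse Sertoli cells. It was at 0.979 FPKM in BDE-47 testes and 1.35 FPKM in vehicle testes, and it was the single gene of the 9 with a lower value in the BDE-47 column. Its difference of -0.25 lay within 2-fold. Rhox5 shares the bounds chromosome X:123980342-124079732 of rn5 with Rhox8 and with a locus that merges Rhox2 and Rhox7, so reads of these related genes may be shared. Rhox8 was at 11.4 FPKM in BDE-47 testes and 9.58 FPKM in vehicle testes, and the Rhox2 and Rhox7 locus at 2.07 FPKM in BDE-47 testes and 2.89 FPKM in vehicle testes. None of these 3 loci reached a 2-fold difference.

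Tsx, a testis-specific gene of the X chromosome that is expressed in Sertoli cells, was the second most abundant of the 9 genes. It was at 367 FPKM in BDE-47 testes and 71.0 FPKM in vehicle testes, a 5.17-fold higher value and a difference of 2.35, larger than that of 95.1% of all genes compared. The locus is chromosome X:75078590-75089694 of rn5 and overlaps no other. Genes placed on chromosome X are given for reference: of 343 compared, 185 (53.9%) were called higher and 4 lower, and their median difference was 1.10. Cdx4, next to Tsx, was listed at 0 in both columns, and a listed 0 in this table can be a failed estimate, since the ribosomal protein gene Rps6 was also listed at 0 in both.

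The levels of the 9 genes kept nearly the same order in both columns. Clu, Tsx and Shbg came first and Amh last in each. Clu exceeded 99.8% of all genes compared in the BDE-47 column and 96.7% in the vehicle column, and Tsx exceeded 98.0% in the BDE-47 column and 86.9% in the vehicle column. By the distance of log2(FPKM + 1) over the 2 columns, the single-gene loci nearest to Clu were Cst3 (distance 0.30), Tmsb4x (0.37) and Tpt1 (0.60). Those nearest to Tsx were Rpl3 (0.11), Rpl6 (0.12) and Gapdh (0.16), and those nearest to Shbg were Sdhc (0.09), Psmb2 (0.15) and Igsf1 (0.15). With 2 points per gene this describes level and difference only.

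A list of 12 Sertoli cell markers was read as a reference. The tissue was testis with its several cell types, so the list cannot show which cells the RNA came from. All 12 reached the filter, 10 of them were called higher and none lower, and their median difference was 1.39. Vimentin (Vim) was at 224 FPKM in BDE-47 testes and 32.4 FPKM in vehicle testes, and the tight junction gene Cldn11 at 242 FPKM in BDE-47 testes and 39.4 FPKM in vehicle testes. Summed, the 12 markers were at 1509 FPKM in BDE-47 testes and 421 FPKM in vehicle testes, a ratio of 3.59. Quantile normalization left 8 of the 12 past 2-fold and median-of-ratios scaling left 6. Relative to the median of the Sertoli markers, Clu kept a difference of 1.12, Tsx of 0.97 and Dhh of 0.75. Wt1 (0.18), Shbg (0.16), Amhr2 (-0.13) and Fshr (-0.25) lay near 0 on this scale, and Amh (-1.34) and Rhox5 (-1.63) lay well below it. Before the subtraction of 1.39, Amh was at 0.05 and Rhox5 at -0.25, so most of these 2 values is the subtraction. Both genes are at 1.35 FPKM or less in each column, where log2(FPKM + 1) changes little. As a percentage of the summed markers, Clu was at 101% in BDE-47 testes and 63.4% in vehicle testes, Tsx at 24.3% in BDE-47 testes and 16.9% in vehicle testes, and Dhh at 0.553% in BDE-47 testes and 0.267% in vehicle testes. Shbg was at 4.97% in BDE-47 testes and 5.97% in vehicle testes, and Wt1 at 2.14% in BDE-47 testes and 2.42% in vehicle testes, so for these 2 genes the direction is opposite to that against the marker median. Amhr2 was at 2.08% in BDE-47 testes and 2.98% in vehicle testes, and Fshr at 0.226% in BDE-47 testes and 0.238% in vehicle testes. The lowest ratios were those of Amh, at 0.0348% in BDE-47 testes and 0.113% in vehicle testes, and of Rhox5, at 0.0649% in BDE-47 testes and 0.320% in vehicle testes. These 2 genes are low in level, Amh is under the filter, and the ratios come mostly from the rise of the marker sum.

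**Figure D3:**
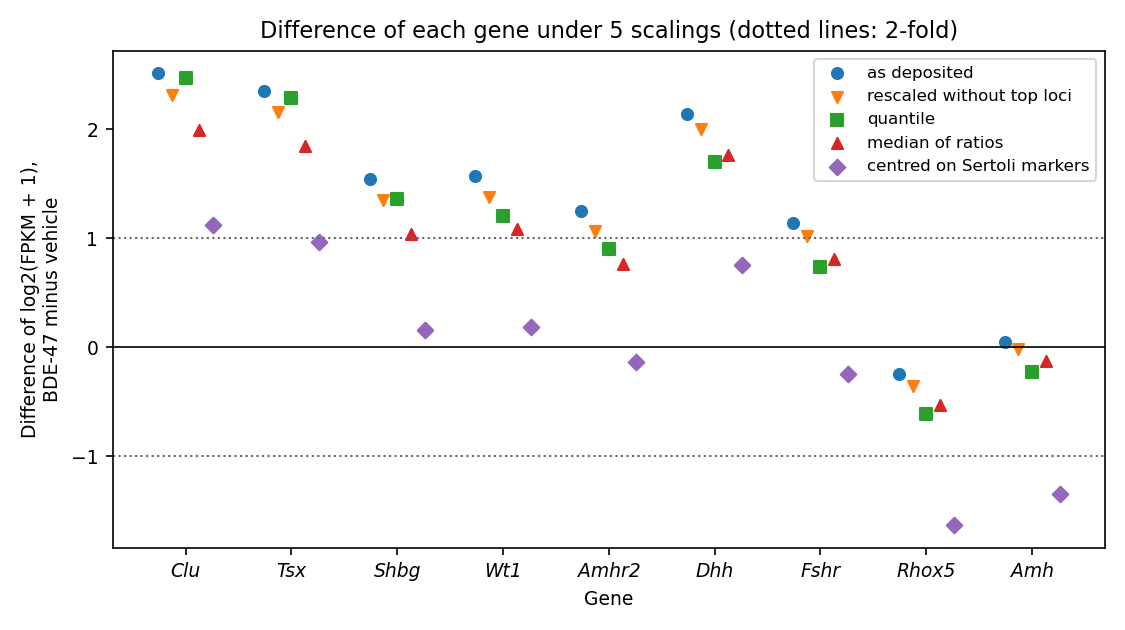
Difference of log2(FPKM + 1), BDE-47 minus vehicle, for each of the 9 genes under 5 scalings, with dotted lines at 2-fold. Clu, Tsx, Dhh, Wt1 and Shbg stay past 2-fold under the first 4 scalings, Amhr2 and Fshr under 2 of them, and after centring on the Sertoli cell markers Clu at 1.12 is the only gene past the upper line.

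Markers of other testis cells also differed, most lists upward and that of elongating spermatids downward, and their part in the differences was not tested. For reference, 30.1% of all genes compared were higher and 3.6% lower, with a median difference of 0.45. The list medians were 1.09 for peritubular, 1.00 for endothelial, 0.82 for spermatogonia and 0.97 for spermatocyte markers. After median-of-ratios scaling those of spermatogonia and spermatocyte markers were 0.31 and 0.45. All 7 Leydig cell markers were at least 2-fold higher, with summed levels of 1632 FPKM in BDE-47 testes and 145 FPKM in vehicle testes. The loci of Insl3 here and of Tek, Hormad1, Spo11 and Gapdhs in the lists that follow are each merged with another gene. All 8 macrophage markers were at least 2-fold higher, summing to 360 FPKM in BDE-47 testes and 25.7 FPKM in vehicle testes. Of these, Cd68 and Ptprc, at 0.796 and 0.332 FPKM in vehicle testes, passed the filter through the BDE-47 column, where they are high. Of 6 peritubular markers 3 were higher and none lower, with sums of 259 FPKM in BDE-47 testes and 93.0 FPKM in vehicle testes. Of 6 endothelial markers 4 were compared and 2 were higher, with sums of 146 FPKM in BDE-47 testes and 91.5 FPKM in vehicle testes. The locus that merges Tek with Eqtn made up most of both sums, at 133 FPKM in BDE-47 testes and 88.0 FPKM in vehicle testes. Pecam1, called higher, was at 0.570 FPKM in vehicle testes and passed the filter through the BDE-47 column, where it is high. Germ cells were split by stage: 2 of 4 spermatogonia markers compared (sums of 166 FPKM in BDE-47 testes and 94.9 FPKM in vehicle testes) and 3 of 7 spermatocyte markers (1085 FPKM in BDE-47 testes and 569 FPKM in vehicle testes) were higher and none of either list was lower. Of 9 elongating spermatid markers, 6 were at least 2-fold lower and none higher. The sum of the 9 was 31508 FPKM in BDE-47 testes and 78530 FPKM in vehicle testes. Prm1, Prm2 and Tnp2, all among those lower, share the same locus bounds. Prm1 alone was at 16271 FPKM in BDE-47 testes and 43238 FPKM in vehicle testes. The median difference of the 9 was -1.26. Under median-of-ratios scaling 8 were lower with a median of -1.77, and under quantile normalization 4 were lower with a median of -0.71. After median-of-ratios scaling no spermatocyte marker was past 2-fold, and 2 peritubular, 1 endothelial and 1 spermatogonia marker were. No marker of these lists was listed at 0.

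The 5 lists of related genes place the 9 genes in their pathways. The lists share some genes. Together they hold 46 different genes compared, of which 30 (65.2%) were called higher, 1 lower and 15 neither, and their median difference was 1.48. These counts stand against the background of 30.1% given above. Of the 30, 6 had a vehicle value under 1 FPKM and passed the filter through the BDE-47 column, where they are high.

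Other products secreted by Sertoli cells were mostly higher. Of 18 genes, 14 were compared, 12 were called higher and none lower, and the median difference was 2.42. Testin, a secreted protein of Sertoli cell junctions, was at 83.9 FPKM in BDE-47 testes and 0.637 FPKM in vehicle testes, while its other locus with the same bounds was near even, with a log2 ratio of 0.30 in the authors' deposited table. Ceruloplasmin (Cp), a copper-carrying protein, was at 44.3 FPKM in BDE-47 testes and 3.20 FPKM in vehicle testes. Sparc, a matrix protein, was at 254 FPKM in BDE-47 testes and 32.7 FPKM in vehicle testes, and the plasminogen activator Plat at 16.6 FPKM in BDE-47 testes and 1.55 FPKM in vehicle testes. The 2 genes within 2-fold were Gdnf, a growth factor for spermatogonial stem cells (difference 0.75), and Inhbb, the inhibin beta B subunit (0.38).

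Genes of follicle-stimulating hormone and androgen action gave a mixed picture. Of 17 genes, 13 were compared, 5 were at least 2-fold higher and 8 lay within 2-fold, with a median of 0.45, close to that of all genes compared. The same count of 5 was found after each rescaling, while the median was -0.05 after median-of-ratios scaling. Those higher included Kitlg, the ligand of the germ cell receptor Kit (15.3 FPKM in BDE-47 testes and 1.95 FPKM in vehicle testes), Gnas, the stimulatory G protein subunit that couples Fshr to adenylate cyclase (211 FPKM in BDE-47 testes and 47.5 FPKM in vehicle testes), Tubb3, a beta tubulin (37.0 FPKM in BDE-47 testes and 9.32 FPKM in vehicle testes), and Inha, the inhibin alpha subunit. Inha was at 51.3 FPKM in BDE-47 testes and 16.7 FPKM in vehicle testes. The 5 genes of protein kinase A and of the cyclic AMP response factors lay within 2-fold. Of the kinase subunits, Prkar2b had a difference of 0.41, Prkar1a one of 0.05, and Prkaca one of 0.01 in a locus merged with Asf1b. Of the factors, Crem had a difference of 0.45 and Creb1 one of -0.39. Many of these are also expressed in germ cells.

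Of 12 genes that act downstream of Amhr2, namely type I receptors, Smad mediators and inhibitors, and Id target genes, 9 were compared, 6 were called higher and none lower, and the median was 1.34. Under quantile normalization, as under median-of-ratios scaling, 4 were past 2-fold. The target genes Id3 (22.3 FPKM in BDE-47 testes and 2.69 FPKM in vehicle testes) and Id2 (19.3 FPKM in BDE-47 testes and 2.27 FPKM in vehicle testes) had the largest differences, 2.66 and 2.64. Smad4, the shared mediator, was at 18.9 FPKM in BDE-47 testes and 6.02 FPKM in vehicle testes, and the type I receptor Bmpr1a at 12.6 FPKM in BDE-47 testes and 3.84 FPKM in vehicle testes. The same proteins serve bone morphogenetic proteins.

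Of the genes that receive the signal of Dhh, 10 were in the analysis and 4 were compared. The target gene Gli1 was at 2.75 FPKM in BDE-47 testes and 0.361 FPKM in vehicle testes, and the receptor Ptch1 at 2.73 FPKM in BDE-47 testes and 0.801 FPKM in vehicle testes. Both were past 2-fold, but both had vehicle values under 1 FPKM and passed the filter through the BDE-47 column, so no direction of the list is read from them. Also past 2-fold was Sufu, an inhibitor of the pathway, in the opposite direction, at 49.9 FPKM in BDE-47 testes and 103 FPKM in vehicle testes. The list median was 0.72. After median-of-ratios scaling, quantile normalization or leaving out the most abundant loci, 1 of the 4 was past 2-fold upward and 1 downward.

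Of 11 transcription factors of Sertoli cells, 10 were compared and 7 were called higher and none lower, and their median difference of 1.54 was close to the 1.57 of Wt1. Nr5a1, which Leydig cells also express, was at 27.3 FPKM in BDE-47 testes and 4.00 FPKM in vehicle testes, and Tcf21 was at 9.45 FPKM in BDE-47 testes and 0.933 FPKM in vehicle testes. Tcf21 passed the filter through the BDE-47 column, where it is high. Gata4 was at 22.6 FPKM in BDE-47 testes and 5.39 FPKM in vehicle testes, and Cited2 at 24.4 FPKM in BDE-47 testes and 6.96 FPKM in vehicle testes. Sox8, Dmrt1 and Lhx9 lay within 2-fold, with differences of 0.92, 0.91 and 0.61, and Gata1 was listed at 0 in both columns.

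**Figure D4:**
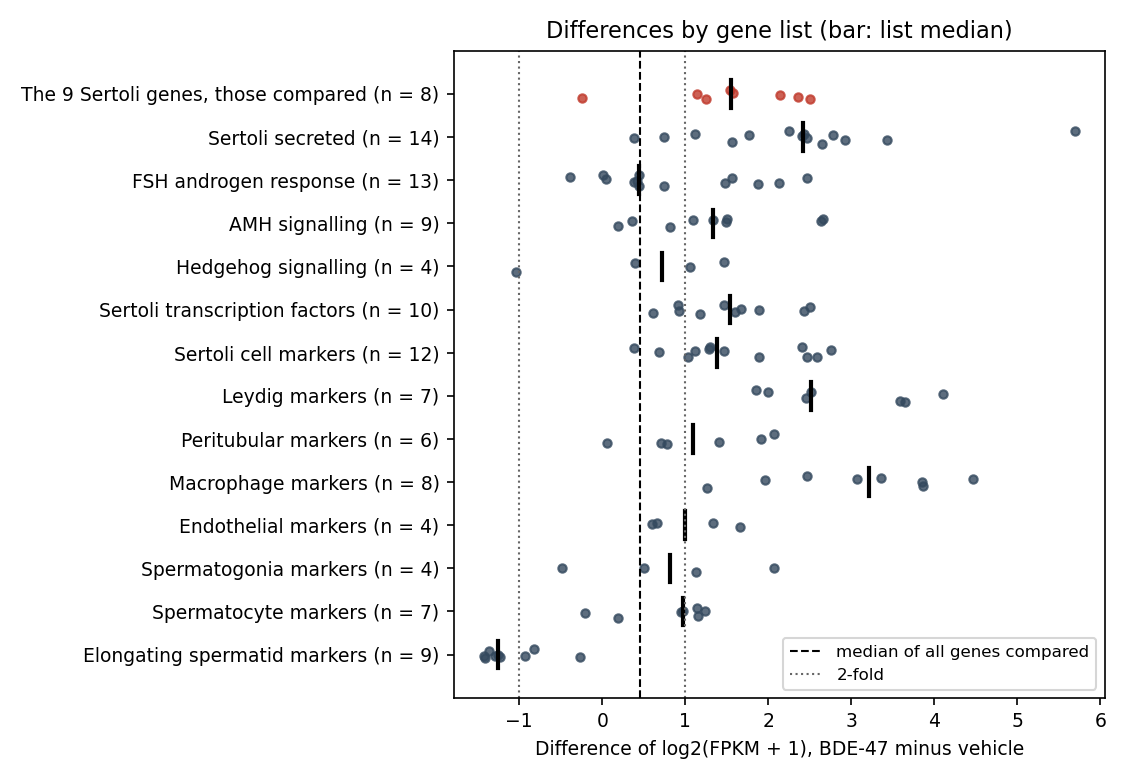
Difference of log2(FPKM + 1), BDE-47 minus vehicle, of each gene compared, by list, with a bar at the list median; the 9 Sertoli genes are the red row, the dashed line is the median of all genes compared and the dotted lines are 2-fold. The red row has a median of 1.56 with Rhox5 alone below 0, the Leydig and macrophage markers have medians of 2.51 and 3.21, and the elongating spermatid markers one of -1.26.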

How the data were processed

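Polyadenylated RNA of testis was sequenced from 5 rats whose dams received BDE-47 and 5 whose dams received vehicle, per the labels. Per the submitters' processing notes, TopHat2 and Cuffdiff 2.1.1 were used with build rn5; the sources used here do not state the annotation, the strand setting or how libraries were combined. The authors deposited log2 FPKM to 2 decimals, 1 value per group, with their log2 ratio, which equals the difference of the columns within 0.01. A log2 value of -10 was read as listed at 0. Depth per library is unknown.

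Of 94827 loci, 20638 are named. The locus with the highest mean was kept for each name field (16915), and 11567 were compared, those averaging 1 FPKM or more over the columns, of which 517 are merged loci. The plan provided limma for values per library; with group values, no test was run. The calling code was tested on simulated data. Members and lists were chosen with earlier results of these data known. Genes named are the 9 genes and, from the lists, up to 4 per list past 2-fold with the largest difference (otherwise the 2 most abundant), and the 3 nearest loci of the 3 most abundant members; neighbouring and overlapping loci, the other Rhox genes, Alb, Ttr, Rps6 and the list genes within 2-fold were named after their values were seen. A few genes under this rule are not reported here. RefSeq promoters and names are on GRCr8. Python 3.11.15, pandas 2.3.3, numpy 2.4.6 and matplotlib 3.10.9 were used, and 11 alternatives were run.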

Additional observations from a re-analysis of the deposited data

How the results depend on the processing

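The count of 7 genes at least 2-fold higher was also 7 with pseudocounts of 0.1 and 0.01, the deposited ratio, rescaling without the most abundant loci, no filter, summed rows and no merged loci. It was 5 under quantile normalization and under median-of-ratios scaling, where Fshr and Amhr2 came within 2-fold, and 5 of 5 compared with a filter at 5 FPKM. The share of all genes compared that were higher moved as well. From 30.1% in the main setting it became 19.4% under quantile normalization, 19% under median-of-ratios scaling and 26.4% with the filter at 5 FPKM. In the other settings just named it ran from 21.3% (no filter) to 35.6% (the deposited ratio). Centred on the Sertoli cell markers, the count of genes higher was 1, with 1 gene lower (Rhox5), Fshr at -0.25 and Amhr2 at -0.13. Over all genes compared, 4.67% were higher and 47.3% lower after this centring. In that setting the pathway lists had 12 of 46 genes higher in place of 30, and 7 lower in place of 1. The setting subtracts 1.39 from every difference by construction. Sox9, Gata4, Inhbb, Kitlg, Ctsl and Tf are both markers and pathway list genes, so the pathway lists are partly centred on themselves. The median of 1.56 became 1.66 and 1.71 with pseudocounts of 0.1 and 0.01, 1.71 with the deposited ratio, 1.06 after median-of-ratios scaling, 1.28 after quantile normalization, 1.37 without the most abundant loci, 0.17 centred on the Sertoli cell markers, 1.54 with no filter and 1.57 with the filter at 5 FPKM. The cause of the other changes was not tested. No paired analysis was possible because the table holds 1 value per group, and for the same reason no library could be left out.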

Other observations

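Values of further neighbouring genes are given here. Rcn1, a calcium-binding protein gene of the endoplasmic reticulum near Wt1, was at 43.1 FPKM in BDE-47 testes and 7.06 FPKM in vehicle testes, and Prrg4, on the other side of Wt1, at 5.50 FPKM in BDE-47 testes and 0.334 FPKM in vehicle testes. Of the Rhox genes outside the bounds of Rhox5, Rhox3, Rhox4g, Rhox9, Rhox10, Rhox11 and Rhox12 were each under 1 FPKM in both columns. These genes were named after their values were seen.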
